A study of Homo sapiens with 16 samples.

Results

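The ATP-dependent chromatin remodelers described here are 49 genes of 4 families, taken by symbol from the 59385 symbols of a table of RNA-Seq counts. They are 26 subunits of the BAF (SWI/SNF) complexes built on SMARCA4 and SMARCA2, 9 genes of the ISWI family, 8 CHD genes and 6 genes of the INO80 and related groups. The list is fixed by gene name, with no threshold on the values of these libraries. The cells were beating cardiomyocytes differentiated from WTC-11, an established human induced pluripotent stem cell (iPSC) line, and were used at day 15 to 35. LINC00881, a long noncoding RNA of heart muscle, was either raised or lowered by lipid transfection. The 4 groups, of 4 libraries each, received a plasmid carrying full-length LINC00881 behind the CMV promoter (LINC00881 plasmid), a control plasmid encoding bacterial alkaline phosphatase, a GapmeR (a locked nucleic acid antisense oligonucleotide) against LINC00881, or a scrambled oligonucleotide. All groups come from 1 cell line, and the transfected share of cells was not measured in these data. The study asked whether LINC00881 works with the SMARCA4 protein, and reported that an antibody to SMARCA4 pulled down LINC00881 but not GAPDH RNA. In its own RNA-Seq analysis SMARCA4 was of borderline significance with both treatments, and the other putative partners were not. It also reported that SMARCA4 mRNA changed with LINC00881 by qPCR. The comparisons below ask whether the mRNAs of SMARCA4 and its relatives moved with LINC00881 in these libraries.

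Remodelers use ATP to slide, evict or exchange nucleosomes and so set which DNA other proteins can reach. BAF complexes open promoters and enhancers. ISWI complexes space nucleosomes evenly, CHD proteins act in both activation and repression, and INO80, SRCAP and EP400 complexes exchange histone variants. In the developing heart BAF contains SMARCD3 and DPF3, which are enriched in muscle, and SMARCA4 (BRG1) is needed for normal growth of the ventricle in mouse embryos.

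The libraries differed between the experiments before any comparison. Total counts per library were 11272633 to 16415025 with LINC00881 plasmid and 9833533 to 13493729 with control plasmid, and 26979162 to 37332620 with GapmeR and 29279325 to 37033017 with scrambled oligonucleotide. Mitochondrial rRNA MT-RNR2 took 0.735% to 0.794% of counts with LINC00881 plasmid and 0.831% to 1.01% with control plasmid, without overlap, and 13.0% to 16.6% with GapmeR and 13.8% to 15.8% with scrambled oligonucleotide, so each treated group was compared only with its own control. All mitochondrial genes took 5.14% to 5.42% with LINC00881 plasmid and 5.46% to 6.64% with control plasmid, and the part of this in the remodelers' values was not tested. LINC00881 itself stood at 407 to 477 CPM (counts scaled to library size) with its plasmid against 87.6 to 143 CPM with control plasmid, and at 11.3 to 26.7 CPM with GapmeR against 54.8 to 149 CPM with scrambled oligonucleotide. The remodelers together took 0.544% of counts with LINC00881 plasmid and 0.554% with control plasmid, and 0.251% with GapmeR and 0.259% with scrambled oligonucleotide. Every remodeler gene had reads in all 16 libraries and all 49 passed the filter on low counts in both experiments. The lowest count of any was 11, for BICRA in a scrambled library. The knockdown libraries stand apart as 2 sets, replicates 1 and 2 against 3 and 4, and results are given within the sets too. In bulk RNA, fewer cells of a type and less RNA per cell cannot be told apart.

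**Figure D1:**
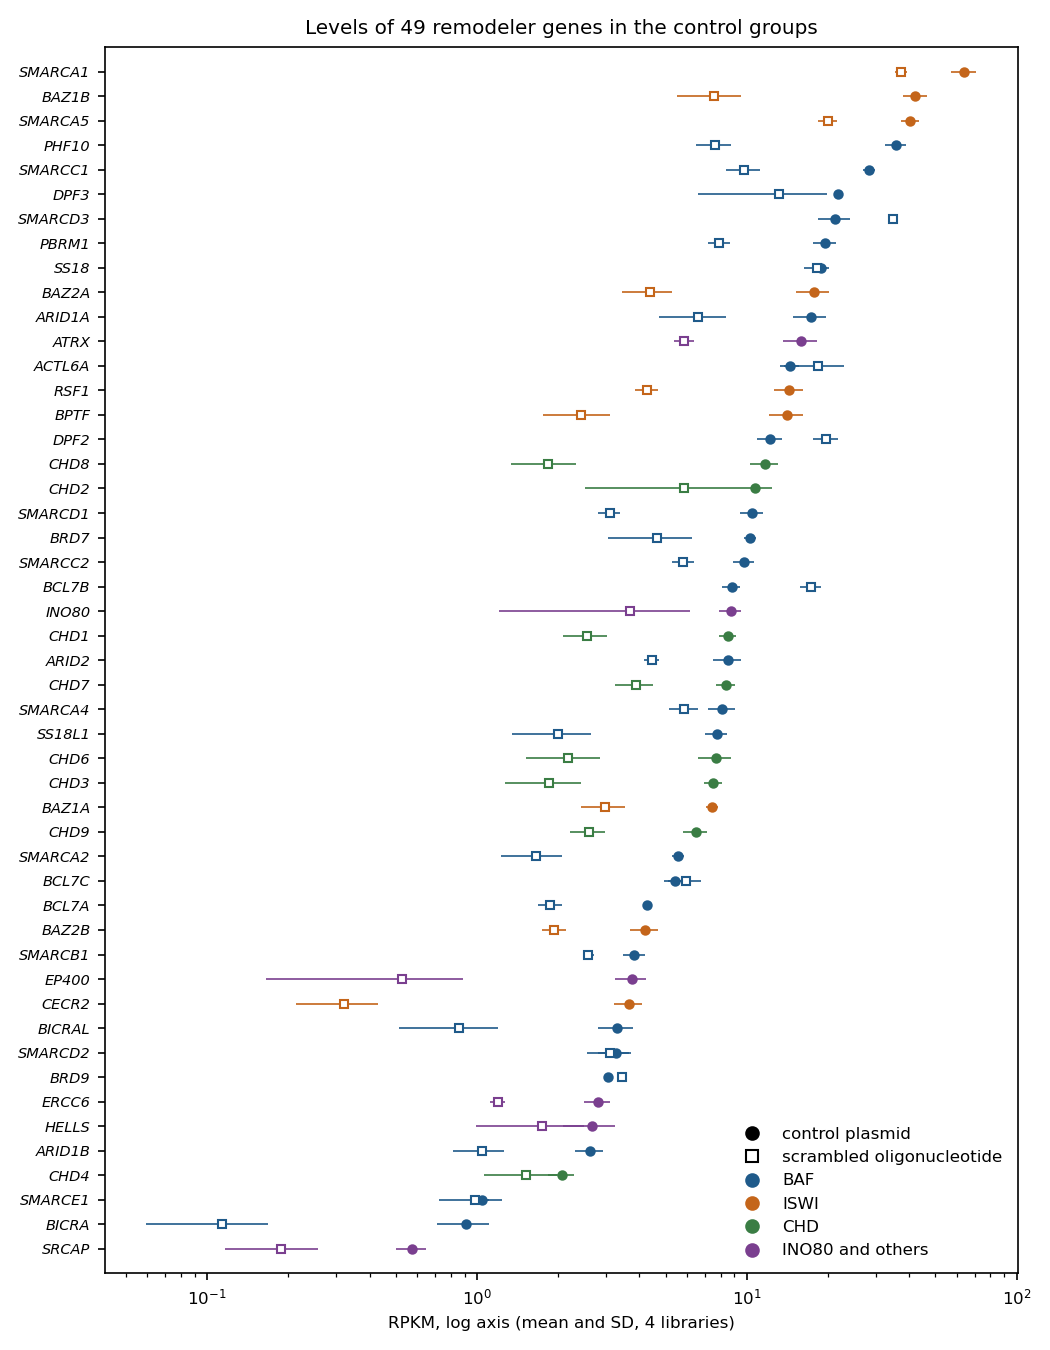
Mean level of each of the 49 genes in RPKM (CPM divided by exonic kilobases, log axis) with control plasmid (filled circles) and scrambled oligonucleotide (open squares); bars are the SD over 4 libraries and colors mark the families. SMARCA1 stands highest in both control groups.

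On the length-scaled levels the ISWI ATPase SMARCA1 was first of the 49 genes in 3 groups and second to SMARCD3 with GapmeR, at 65.1 ± 2.02 RPKM with LINC00881 plasmid and 64.0 ± 6.75 with control plasmid (mean ± SD, n = 4), and at 31.3 ± 10.6 with GapmeR and 37.4 ± 1.99 with scrambled oligonucleotide. Its relative SMARCA5, the other catalytic subunit of ISWI complexes, averaged 35.9 ± 0.845 and 40.3 ± 3.01 RPKM with LINC00881 plasmid and control plasmid. The spread of SMARCA5 overlapped that of BAZ1B, a bromodomain partner of SMARCA5, at 42.2 ± 4.34 RPKM with control plasmid, so their order is not resolved. Among BAF subunits the PBAF member PHF10 and the scaffold SMARCC1 led in the control plasmid group, at 35.8 ± 3.21 and 28.4 ± 1.48 RPKM, while the BAF subunit SMARCD3 led that complex with GapmeR at 32.2 ± 5.42 RPKM and with scrambled oligonucleotide at 34.7 ± 0.980 RPKM. The SDs of SMARCD3 and SMARCA1 overlapped in both knockdown groups, so their order there is not resolved. SMARCA4, an ATPase of BAF, averaged 8.91 ± 0.312 RPKM with LINC00881 plasmid and 8.11 ± 0.907 with control plasmid, and 4.43 ± 0.961 with GapmeR and 5.86 ± 0.707 with scrambled oligonucleotide. Its paralog SMARCA2 was lower in every group, at 5.55 ± 0.282 RPKM with control plasmid and 1.65 ± 0.418 RPKM with scrambled oligonucleotide. SRCAP and BICRA were lowest, at 0.575 ± 0.0733 and 0.910 ± 0.198 RPKM with control plasmid. The lengths count every annotated exon of a gene, so genes with many rare transcripts, such as SMARCE1, are understated on this scale.

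Reads were counted without regard to strand, although the kit keeps it, and the exons of 30 of the 49 genes overlap another annotated gene, 24 of them on the other strand. The longest overlaps lie on the same strand, in SRCAP (10136 bases), CHD4 (5964 bases) and SMARCE1 (3697 bases), and the values of these genes are uncertain for that reason. BRD7 and SMARCB1 overlap genes of the other strand by 3603 and 2923 bases. The counts of CHD2 (1730 bases, same strand) and SMARCA5 (1132 bases, other strand) carry the same doubt. SMARCA4 shares 99 bases with a small noncoding RNA model, and DPF3, BICRAL, SMARCA1, BAZ1B and CHD1 share none.

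Promoter sequences are shown for the genes on which the comparisons below turn. SMARCA4 encodes the protein that the study reported to interact with LINC00881. PHF10 passed an unadjusted p under 0.05 in edgeR in both experiments with opposite signs, and DPF3 did so with knockdown, where it was lower. CHD2 and INO80 had the largest differences between sets of knockdown libraries. Each window is 250 bases before to 50 after an annotated start, from RefSeq on GRCh38.p14, 5′ to 3′ on the gene's own strand, and capitals mark matches to any of 4 motifs searched on both strands. The motifs were the GC box GGGCGG, the CCAAT box CCAAT, the ETS core CCGGAAG and the YY1 core ATGGCGGC.
SMARCA4 (chr19:10960780-10961079, plus strand): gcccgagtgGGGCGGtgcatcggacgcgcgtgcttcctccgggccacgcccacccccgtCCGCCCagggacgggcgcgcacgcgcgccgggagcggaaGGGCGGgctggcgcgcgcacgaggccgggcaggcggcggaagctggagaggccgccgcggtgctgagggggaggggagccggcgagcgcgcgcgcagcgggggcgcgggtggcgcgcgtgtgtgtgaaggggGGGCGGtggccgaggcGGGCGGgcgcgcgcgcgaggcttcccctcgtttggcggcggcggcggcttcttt
PHF10 (chr6:169724451-169724750, minus strand): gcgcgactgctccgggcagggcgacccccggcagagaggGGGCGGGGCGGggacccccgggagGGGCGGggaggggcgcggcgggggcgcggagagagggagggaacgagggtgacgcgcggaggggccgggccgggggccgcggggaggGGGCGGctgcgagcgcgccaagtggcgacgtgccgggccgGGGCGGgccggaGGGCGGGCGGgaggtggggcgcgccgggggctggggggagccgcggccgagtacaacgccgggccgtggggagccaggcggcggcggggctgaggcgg
DPF3 (chr14:72894052-72894351, minus strand): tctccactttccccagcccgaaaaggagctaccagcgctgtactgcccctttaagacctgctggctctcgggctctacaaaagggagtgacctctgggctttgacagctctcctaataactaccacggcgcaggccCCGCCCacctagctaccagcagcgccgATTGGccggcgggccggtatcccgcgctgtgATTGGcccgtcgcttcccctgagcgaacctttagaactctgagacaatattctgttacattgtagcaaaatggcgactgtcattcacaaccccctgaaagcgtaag
CHD2 (chr15:92900074-92900373, plus strand): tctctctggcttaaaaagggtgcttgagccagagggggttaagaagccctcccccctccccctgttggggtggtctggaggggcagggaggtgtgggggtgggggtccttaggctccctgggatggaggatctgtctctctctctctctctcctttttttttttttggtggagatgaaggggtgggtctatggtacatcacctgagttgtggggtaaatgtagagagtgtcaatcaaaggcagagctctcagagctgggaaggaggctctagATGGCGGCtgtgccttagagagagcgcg
INO80 (chr15:41116231-41116530, minus strand): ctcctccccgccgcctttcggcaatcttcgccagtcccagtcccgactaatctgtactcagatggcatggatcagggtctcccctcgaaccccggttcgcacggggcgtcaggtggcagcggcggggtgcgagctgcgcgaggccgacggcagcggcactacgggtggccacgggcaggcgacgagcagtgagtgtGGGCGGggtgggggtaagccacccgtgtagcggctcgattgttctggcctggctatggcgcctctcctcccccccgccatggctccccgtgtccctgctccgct
SMARCA4 and DPF3 each had 2 windows, of which 1 is shown. In GENCODE 29 (GRCh38) the genes span chr19:10960825-11079426 (SMARCA4, plus strand), chr6:169703905-169725566 (PHF10, minus strand), chr14:72619296-72894116 (DPF3, minus strand), chr15:92900189-93028005 (CHD2, plus strand) and chr15:40978880-41116354 (INO80, minus strand). The SMARCA4 window held 5 GC boxes and that of PHF10 held 7, with overlapping matches counted. DPF3 had 2 CCAAT boxes and 1 GC box, INO80 had 1 GC box, and CHD2 had 1 YY1 core. The table held 63 windows for 40 of the 49 genes, and a GC box was found in 74.6% of them, against 45.0% of all 35116 windows. The CCAAT box was found in 25.4% of the remodelers' windows and 34.6% of all, the ETS core in 7.94% and 10.3%, and the YY1 core in 7.94% and 3.00%.

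With LINC00881 plasmid, 26 of the 49 remodelers had a log2 fold change above 0 and 23 below 0. The unadjusted threshold was passed by no higher mRNA and by 5 slightly lower ones, at 0.842 to 0.891 of the control level. They were CHD1, a remodeler that binds methylated histones at active genes, the ISWI genes SMARCA5, BAZ1A and BAZ2B, and PHF10. These 5 of 49 (10.2%) passed an unadjusted p under 0.05 in edgeR's quasi-likelihood test, whereas 12.1% of all 14355 genes tested did so, 5.87% higher and 6.23% lower. After Benjamini-Hochberg adjustment none of the 49 passed in edgeR (smallest adjusted p 0.262), against 0.00697% of all genes. None passed in DESeq2, against 57 of all 14355 genes, and 1 passed in limma-voom with sample weights, against 217. The median log2 fold change was 0.01 over the 49 genes and 0.0033 over all genes tested. By family the counts were 1 of 26 BAF genes, 3 of 9 ISWI genes, 1 of 8 CHD genes and 0 of 6 INO80 and related genes, all of them lower with LINC00881 plasmid. With the 16 libraries in 1 fit, which takes its spread from both experiments, no member passed. Over all 17782 genes that fit called 94 higher and 53 lower. With length and GC offsets, which are smooth corrections for exonic length and GC content fitted in each library, 1 member was higher and 9 were lower. Over all 14355 genes these offsets gave 561 higher and 802 lower.

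CHD1 stood at 71.9, 72.9, 73.7 and 80.3 CPM in the 4 libraries with LINC00881 plasmid, against 87.1, 83.0, 97.8 and 87.4 CPM with control plasmid. Every overexpression library lay below every control library, and the log2 fold change was -0.25 (standard error, SE, 0.07, adjusted p = 0.262 in edgeR). BAZ1A, the ACF1 subunit that pairs with SMARCA5, read 50.5, 49.2, 52.8 and 48.5 CPM with LINC00881 plasmid and 54.6, 60.6, 59.1 and 55.1 CPM with control plasmid, again without overlap (log2 fold change -0.19, SE 0.07). SMARCA5 read 296, 303, 295 and 310.2 CPM with LINC00881 plasmid and 318, 333, 375 and 326 CPM with control plasmid (log2 fold change -0.17, SE 0.07). Its groups did not overlap either, although the highest overexpression and the lowest control library were close. DPF3, a reader of acetylated histones in the BAF of muscle, also had groups without overlap, at 157, 167, 157 and 158 CPM with LINC00881 plasmid and 147, 150.1, 144 and 157 CPM with control plasmid, the lowest overexpression library lying just above the highest control library. Its log2 fold change of 0.09 (SE 0.06, adjusted p = 0.562 in edgeR) did not pass. These 4 genes are 4 of 49 without overlap, against 7.25% of all genes tested.

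PHF10 and BAZ2B overlapped between groups. PHF10, the subunit that marks PBAF, read 168, 171, 175 and 188 CPM with LINC00881 plasmid and 185, 202, 222 and 184 CPM with control plasmid, at a log2 fold change of -0.18 (SE 0.07). BAZ2B, a bromodomain protein of ISWI complexes, read 73.8, 72.9, 77.2 and 76.4 CPM with LINC00881 plasmid and 90.4, 71.3, 93.8 and 85.2 CPM with control plasmid, where control library 2 lay below all overexpression libraries (log2 fold change -0.18). The calls of CHD1 and BAZ1A were kept without any 1 of the 8 libraries. The number of calls was 11 without control plasmid library 2, 2 without control plasmid library 3, and 3 without LINC00881 plasmid library 1 or library 2. Over all genes, these fits called 1279 higher and 1332 lower without control plasmid library 2, and 543 and 524 without control plasmid library 3. Without LINC00881 plasmid library 1 or library 2 they called 553 and 590, or 659 and 706.

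SMARCA4 did not pass with overexpression. It read 139.7, 141, 147 and 135 CPM with LINC00881 plasmid, against 143, 122, 111 and 136 CPM with control plasmid, and control libraries 2 and 3 lay below all overexpression libraries while the other controls lay inside their range. The log2 fold change was 0.14 (SE 0.08, adjusted p = 0.477 in edgeR). It turned to -0.02 with length and GC offsets, and it passed at 0.18 without control plasmid library 1. The BAF core subunits SMARCB1, SMARCC2, SMARCD1, SMARCD2 and SMARCD3, with log2 fold changes of 0.10 to 0.17, and SMARCC1 and SMARCE1, at -0.05 and -0.03, did not pass.

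**Figure D2:**
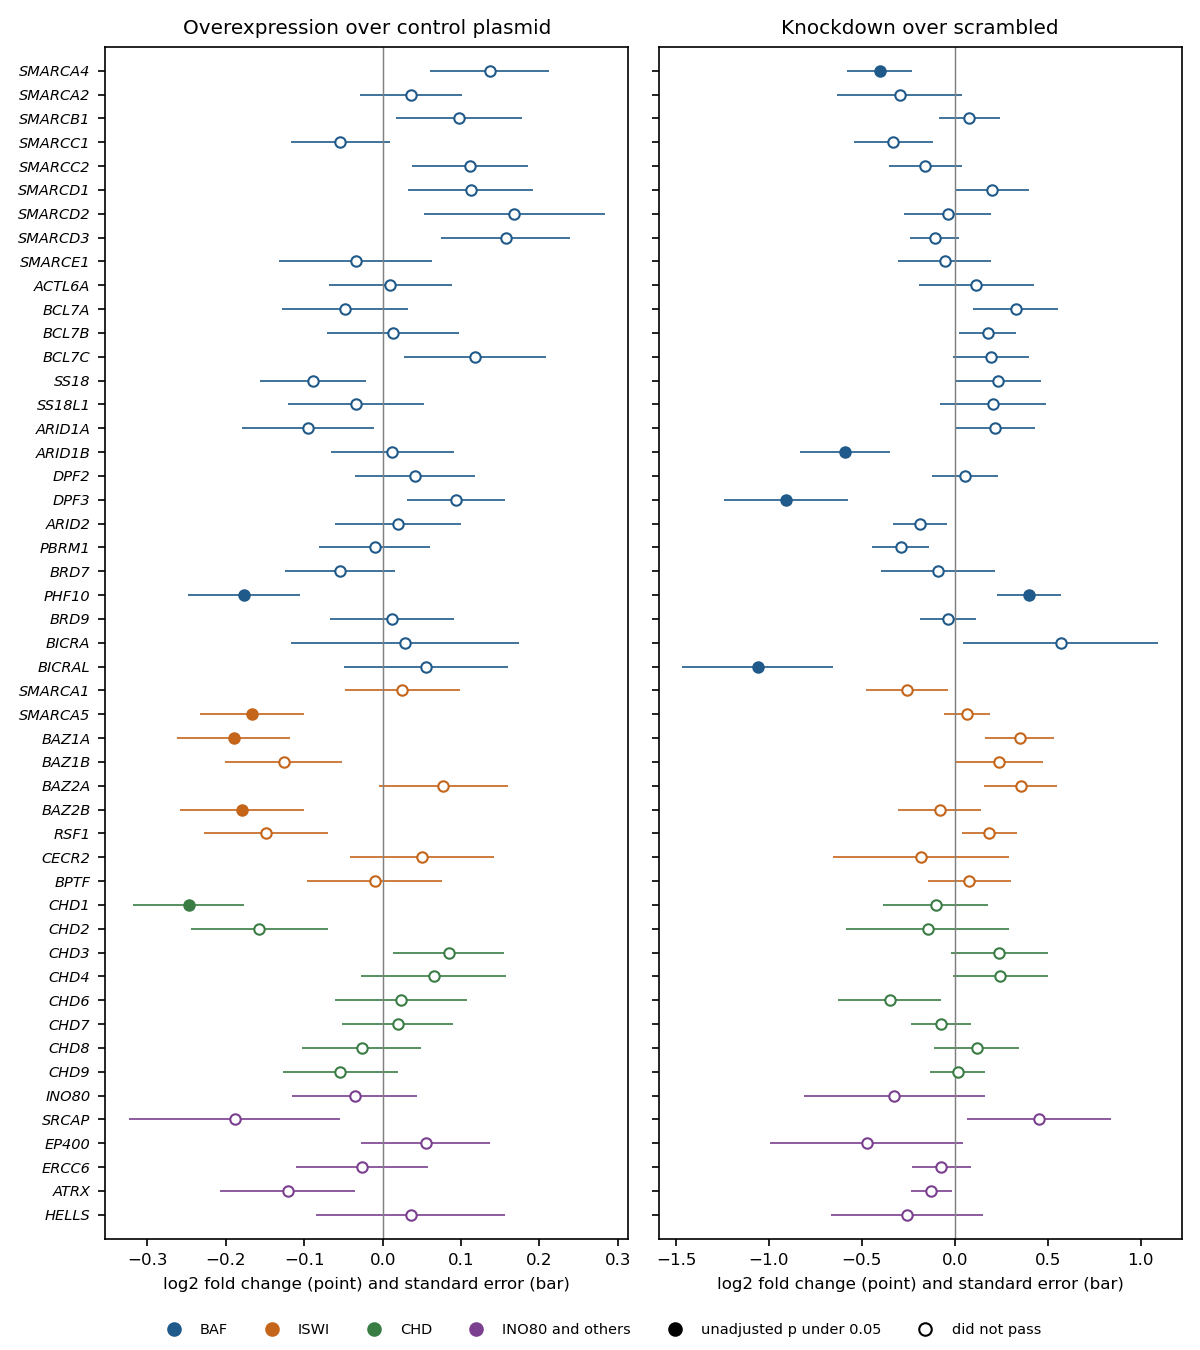
Log2 fold change (points) and its standard error (bars) of each gene, LINC00881 plasmid over control plasmid on the left and GapmeR over scrambled oligonucleotide on the right; filled points passed an unadjusted p under 0.05, and the horizontal scales differ. The left panel has 5 filled points, all below 0, and the right panel has 1 above and 4 below 0.

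With GapmeR, 4 BAF subunits fell and 1 rose. SMARCA4 fell, as did ARID1B, the DNA-binding subunit of canonical BAF, DPF3 and BICRAL, the GLTSCR1-like subunit of noncanonical BAF, while PHF10 rose. These 5 of 49 (10.2%) compare with 8.35% of all 18127 genes tested, 4.2% higher and 4.15% lower. None of the 49 passed after adjustment in edgeR, DESeq2 or limma-voom (smallest adjusted p 0.522 in edgeR), and 5, 4 and 5 genes passed unadjusted. Of all genes, 0 passed after adjustment in edgeR, 194 in DESeq2 and 0 in limma-voom. LINC00881 itself, the target of the GapmeR, had an adjusted p of 0.377 in edgeR. All 5 are BAF genes, and 0 of 9 ISWI, 0 of 8 CHD and 0 of 6 INO80 and related genes passed in edgeR. The median log2 fold change was -0.04 over the 49 genes and -0.0065 over all genes tested. Length and GC offsets gave 5 higher and 2 lower. Span offsets, which do the same for the distance from a gene's start to its end, gave 3 higher and 0 lower. Over all 18127 genes these offsets gave 1062 higher and 475 lower, and 851 higher and 340 lower.

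SMARCA4 read 64.6, 51.9, 87.3 and 75.9 CPM with GapmeR, against 85.9, 81.0, 106 and 97.0 CPM with scrambled oligonucleotide. Within libraries 1 and 2, and within libraries 3 and 4, both GapmeR libraries lay below both scrambled ones, but across sets the groups overlapped. The log2 fold change was -0.40 (SE 0.18, adjusted p = 0.583 in edgeR). Its unadjusted p lay just under the threshold, and the call was lost in DESeq2, in limma-voom, with length and GC offsets (-0.22) or span offsets (-0.18), and without any 1 of scrambled libraries 1, 3 and 4 or GapmeR libraries 1, 2 and 4, where the log2 fold change lay between -0.45 and -0.28. It was kept with a term for the set (-0.42) and with all 16 libraries in 1 fit (-0.39). That last fit takes its spread from both experiments, and the SE of SMARCA4 was 0.14 in it. The same fit called 1709 higher and 1633 lower of all 17782 genes.

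ARID1B read 21.2, 25.9, 35.2 and 41.2 CPM with GapmeR and 35.3, 41.1, 56.9 and 52.6 CPM with scrambled oligonucleotide (log2 fold change -0.59, SE 0.24). Each GapmeR library was lower than the scrambled library of the same set, and GapmeR libraries 3 and 4 lay at the level of scrambled libraries 1 and 2. It is the longest of the 49 genes in span, and with span offsets its log2 fold change was -0.02. DPF3 read 37.9, 48.7, 54.9 and 52.1 CPM with GapmeR and 51.9, 51.4, 133 and 127 CPM with scrambled oligonucleotide (log2 fold change -0.91, SE 0.33). The scrambled libraries fell into pairs near 52 and 130 CPM, and only the second pair lay clear of the GapmeR libraries. The call was lost in limma-voom (-0.71) and with span offsets (-0.38). BICRAL, a low gene, read 2.66, 2.68, 3.98 and 1.91 CPM with GapmeR and 7.49, 2.40, 7.01 and 6.52 CPM with scrambled oligonucleotide, where library 2 was as low as with GapmeR (log2 fold change -1.06, SE 0.40), and with span offsets its call was lost. PHF10 read 50.9, 60.1, 45.7 and 65.8 CPM with GapmeR and 47.5, 46.6, 40.9 and 33.6 CPM with scrambled oligonucleotide (log2 fold change 0.40, SE 0.17), and GapmeR library 3 lay within the scrambled range. Its call was lost in limma-voom and with span offsets. No gene of the 49 had groups without overlap, against 6.44% of all genes tested. The number of calls was 0 without scrambled library 3 or library 4, 1 without GapmeR library 1, 2 without GapmeR library 4, and 3 without scrambled library 1 or GapmeR library 2. Over all genes, these fits called 546 to 837 higher and 602 to 802 lower, of 18583 to 19039 tested.

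**Figure D3:**
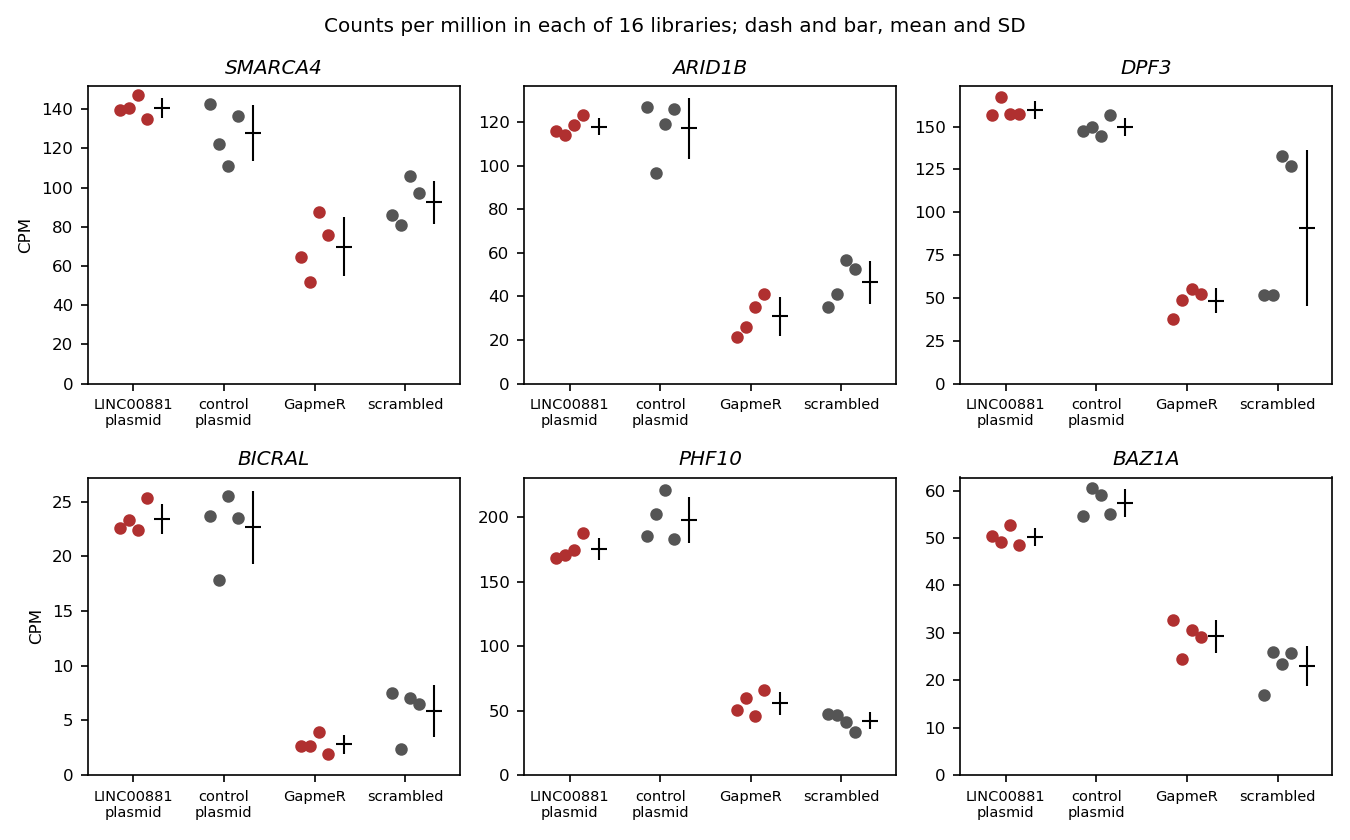
CPM of 6 genes in each of the 16 libraries, with LINC00881 plasmid, control plasmid, GapmeR and scrambled oligonucleotide from left to right; the dash and bar beside each group are the mean and SD of 4 libraries. The 2 scrambled libraries of DPF3 near 130 CPM stand apart from the other 2 near 52 CPM, and BAZ1A with LINC00881 plasmid lies below control plasmid without overlap.

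Beside these values, markers of cardiomyocytes moved too. Their summed level was 33266 to 35329 CPM with LINC00881 plasmid and 30364 to 32252 CPM with control plasmid, with 4 of 12 genes higher and 1 lower. It was 15820.0 to 20385 CPM with GapmeR and 21833 to 25148 CPM with scrambled oligonucleotide, with 0 of 12 higher and 5 lower. Neither pair of groups overlapped (exact permutation test, 2-sided, p = 0.0286, the smallest that 4 against 4 libraries allow, and 0.08 adjusted over 14 marker sums). Summed fibroblast and smooth muscle markers were also higher with LINC00881 plasmid without overlap, at 811 to 866 CPM against 727 to 796 CPM and at 1314 to 1395 CPM against 1146 to 1301 CPM with control plasmid (the same exact p). Pluripotency markers summed to 94.0 to 107 CPM with GapmeR and 83.9 to 87.4 CPM with scrambled oligonucleotide, although none of the 5 genes tested passed. Of all genes tested, 5.87% were higher and 6.23% lower with LINC00881 plasmid, and 4.2% and 4.15% with GapmeR. MYH6 is among the cardiomyocyte markers, and the study reported it from its RNA-Seq as positively regulated by LINC00881. The cardiomyocyte sum is thus not independent of that reported target. The part of these marker shifts in the values of SMARCA4, DPF3 and the others was not tested.

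The effects of the 2 treatments on the same gene were compared in 1 fit of all 16 libraries as overexpression effect minus knockdown effect. This fit shares 1 estimate of spread between the experiments, although the spread was larger with knockdown. In it 6 of 49 remodelers passed, against 11.1% of all genes tested, 5.56% higher and 5.54% lower. SMARCA4 (0.53, SE 0.20), ARID1B (0.59), DPF3 (1.00) and BICRAL (1.11) had the higher effect with overexpression, and PHF10 (-0.58) and BAZ1A (-0.55) the lower. None passed after adjustment in edgeR (smallest adjusted p 0.199) or limma-voom, and 1 passed in DESeq2. Of all 17782 genes tested, 17 passed after adjustment in edgeR, 298 in limma-voom and 389 in DESeq2. The call of SMARCA4 was kept without any 1 library and lost in limma-voom and with length and GC offsets, where the difference was 0.19, and that of DPF3 was lost with span offsets (0.46). PHF10 alone of the 49 passed the unadjusted threshold on its own in both experiments, with opposite signs. The share of all genes doing so was not counted. Its overexpression call was lost without control plasmid library 3 or LINC00881 plasmid library 1 or 2. Its knockdown call was lost without scrambled library 3 or 4 or GapmeR library 2 or 4. BAZ1A, lower with LINC00881 plasmid, read 32.8, 24.4, 30.7 and 29.2 CPM with GapmeR and 16.9, 25.9, 23.4 and 25.7 CPM with scrambled oligonucleotide, where GapmeR library 2 lay inside the scrambled range (log2 fold change 0.35, adjusted p = 0.664 in edgeR). With length and GC offsets 2 remodelers were higher and 11 lower in this difference, and with separate means for the knockdown sets 7 were higher and 8 lower. Over all 17782 genes these settings gave 642 higher and 1347 lower, and 2196 higher and 1970 lower.

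Core subunits of BAF complexes did not pass with knockdown. The log2 fold changes were 0.08 for SMARCB1, -0.33 for SMARCC1, -0.16 for SMARCC2 and -0.05 for SMARCE1, and 0.20, -0.04 and -0.11 for the alternative subunits SMARCD1, SMARCD2 and SMARCD3. A further 16 genes passed in neither experiment. They are the BAF subunits ACTL6A, BCL7A, BCL7B, BCL7C, SS18, SS18L1, PBRM1, ARID2, BRD9 and DPF2, the NURF subunit BPTF, CHD6, CHD7, CHD9, the heterochromatin remodeler ATRX and HELLS, which is needed for DNA methylation. Their log2 fold changes ran from -0.12 (ATRX) to 0.12 (BCL7C) with LINC00881 plasmid and from -0.35 (CHD6) to 0.33 (BCL7A) with GapmeR. Within a set, ARID2 alone among these 16 passed, at -0.31 in replicates 1 and 2, and this value turned to 0.05 with length and GC offsets and to 0.18 with span offsets.

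BICRA, CECR2, ERCC6, SMARCA2, BAZ1B and RSF1 were also followed, since the study named them with BAZ1A as candidate partners of LINC00881, and none of these 6 passed over the 8 libraries of either experiment. SMARCA2 read 109, 103, 106 and 104 CPM with LINC00881 plasmid and 105, 95.4, 107 and 106 CPM with control plasmid. With GapmeR it read 16.4, 14.8, 29.7 and 38.9 CPM, against 34.4, 19.7, 31.0 and 37.6 CPM with scrambled oligonucleotide, the lowest values being GapmeR libraries 1 and 2. The Cockayne syndrome B repair protein ERCC6 read 18.5, 17.0, 20.5 and 20.0 CPM with GapmeR and 21.3, 20.5, 19.8 and 18.3 CPM with scrambled oligonucleotide, with both groups in the same range. RSF1, the histone chaperone of the RSF complex, read 201, 197, 201 and 218 CPM with LINC00881 plasmid and 251, 189, 244 and 222 CPM with control plasmid (log2 fold change -0.15, SE 0.08). All 4 RSF1 values with the plasmid lay inside the wide control range. BAZ1B, which also pairs with SMARCA5 and lies in the Williams syndrome region, had a log2 fold change of -0.13 (SE 0.07) with overexpression and 0.24 (SE 0.24) with knockdown. CECR2, a bromodomain partner of SMARCA1, gave 0.05 (SE 0.09) and -0.18 (SE 0.47). BICRA, the counterpart of BICRAL in noncanonical BAF, rested on few reads with knockdown, at 1.66, 1.54, 0.688 and 1.18 CPM with GapmeR and 0.920, 0.315, 0.880 and 1.30 CPM with scrambled oligonucleotide.

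The knockdown libraries formed 2 sets in each group, the first of replicates 1 and 2 and the second of replicates 3 and 4, and the labels do not say what set them apart. GapmeR libraries 1 and 2 were a looser pair than the others. Chi-square per degree of freedom between their counts was 96.3, against 24.2 for GapmeR libraries 3 and 4. It was 30.9 and 16.9 for the scrambled pairs, and 111 to 221 between libraries of a group in different sets. LINC00881 itself fell by a log2 fold change of -2.85 (SE 0.35) in the first set and -1.40 (SE 0.33) in the second. This difference of 1.45 (SE 0.46) passed the unadjusted threshold but not adjustment (adjusted p = 0.108 in edgeR). LINC00881 read 126, 149, 54.9 and 54.8 CPM in scrambled libraries 1 to 4, and 11.3, 26.7, 19.7 and 21.8 CPM with GapmeR. Its part in the remodelers' values was not tested. Fitted within the sets, the remodelers moved differently. In replicates 1 and 2, 11 of 49 were higher with GapmeR and 6 lower (27.1% of all genes tested passed, 13.4% higher and 13.7% lower). In replicates 3 and 4, 1 was higher and 8 lower (15.2% of all genes, 6.95% higher and 8.26% lower). The difference between the 2 effects, as replicates 3 and 4 minus replicates 1 and 2, passed for 16 genes, 2 higher and 14 lower, against 22.7% of all genes, 11.3% higher and 11.5% lower. After adjustment by edgeR 9 genes passed in replicates 1 and 2, against 9.64% of all genes, and 2 in replicates 3 and 4, against 1.38%. Of the differences, 8 passed in edgeR, against 5.67% of all genes, 10 in limma-voom and 12 in DESeq2. Of all 18127 genes, 1346 differences passed in limma-voom and 2331 in DESeq2. These adjusted counts rest on few libraries. The 9 became 0 without scrambled library 1 or 2 or when the set was fitted alone, 4 or 5 without 1 library of the other set and 16 without GapmeR library 1 or 2. Over all genes, 1747 became 44 and 76 without scrambled libraries 1 and 2, and 0 when the set was fitted alone. They became 584 to 756 without 1 library of the other set, and 3442 and 4521 without GapmeR libraries 1 and 2. The 2 in replicates 3 and 4 became 0 without any 1 library of that set, 1 without scrambled library 2, 7 without GapmeR library 2, and 8 without GapmeR library 1 or when the set was fitted alone. Over all genes, 250 became 1 to 3 without 1 library of that set, and 61 without scrambled library 2. They became 1723 without GapmeR library 2, 1783 without GapmeR library 1 and 2050 when the set was fitted alone. The 8 differences became 1 without any 1 of the scrambled libraries or GapmeR library 4, 4 without GapmeR library 3 and 16 without GapmeR library 1 or 2. Over all genes, 1027 differences became 70 to 204 without 1 scrambled library, 104 without GapmeR library 4 and 308 without GapmeR library 3. They became 3252 and 3764 without GapmeR libraries 1 and 2. Length and GC offsets gave 19 higher and 3 lower in replicates 1 and 2, 4 higher and 3 lower in replicates 3 and 4, and 5 higher and 15 lower for the difference. Span offsets gave 17 higher and 2 lower in replicates 1 and 2 and 4 higher and 5 lower in replicates 3 and 4. Over all 18127 genes, length and GC offsets gave 2928 higher and 2124 lower, 1891 and 1139, and 2190 and 2124, in the same order. There span offsets gave 2465 higher and 1855 lower in replicates 1 and 2, and 1767 and 1106 in replicates 3 and 4. With 2 libraries of each group in a set, these fits rest on 4 residual degrees of freedom and on the shared spread of all genes.

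**Figure D4:**
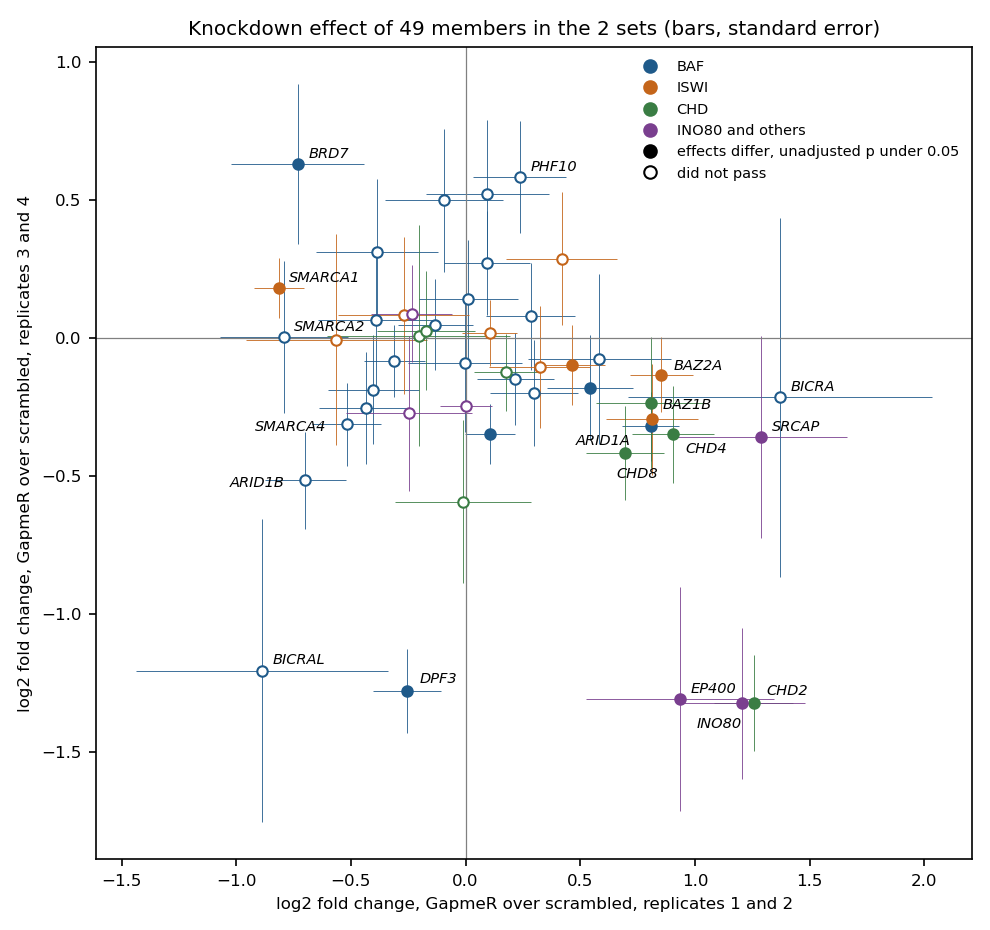
Log2 fold change of GapmeR over scrambled oligonucleotide in replicates 1 and 2 (horizontal) and in replicates 3 and 4 (vertical) for the 49 genes, with standard errors; filled points are the 16 genes whose 2 effects differed at an unadjusted p under 0.05. CHD2, INO80 and EP400 lie at the lower right, above 0 in replicates 1 and 2 and below 0 in replicates 3 and 4.

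CHD2, a remodeler of active promoters, showed the largest difference. It read 98.3 and 142 CPM in GapmeR libraries 1 and 2, against 51.4 and 49.3 CPM in the scrambled libraries of that set. In the other set it read 60.1 and 58.6 CPM with GapmeR, against 149 and 148 CPM with scrambled oligonucleotide. The 2 log2 fold changes, 1.26 and -1.32, differed by -2.58 (SE 0.24, adjusted p = 0.00319 by edgeR). INO80, the ATPase of the INO80 complex, followed the same order, at 17.5, 32.3, 16.9 and 15.7 CPM with GapmeR and 10.6, 11.0, 40.4 and 41.3 CPM with scrambled oligonucleotide, replicates 1 to 4 in turn. Its effects were 1.21 and -1.32, a difference of -2.53 (SE 0.39, adjusted p = 0.0116 by edgeR). For both genes the scrambled libraries differed more between sets than the GapmeR libraries did, and the scrambled pair was low in replicates 1 and 2 and high in replicates 3 and 4.

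ARID1A, the DNA-binding counterpart of ARID1B, and CHD8, a remodeler linked to autism, also passed in both sets with opposite signs. ARID1A read 147, 131, 108 and 99.4 CPM with GapmeR and 84.4, 74.9, 129 and 131 CPM with scrambled oligonucleotide. CHD8 read 49.8, 46.3, 38.7 and 32.1 CPM with GapmeR and 32.7, 26.7, 46.9 and 47.7 CPM with scrambled oligonucleotide. In replicates 1 and 2 the GapmeR libraries of both genes were the higher, and in replicates 3 and 4 the lower. These 2 genes with CHD2 and INO80 make 4 of 49 with opposite calls, against 3.72% of all genes tested. In replicates 3 and 4 the fall of ARID1A (-0.32) became 0.14 with length and GC offsets, and that of CHD8 (-0.42) became -0.032 and no longer passed. The CHD8 call was also lost with span offsets, with no filter on low counts and without scrambled library 3 or 4 or GapmeR library 4. ARID1B was the only remodeler called in both sets with the same sign (1 of 49, against 476 of 18127 genes), lower at -0.70 and -0.52. These values turned to 0.22 in replicates 1 and 2 with span offsets and to 0.086 in replicates 3 and 4 with length and GC offsets.

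Of the other genes whose effects differed, each passed in 1 set at most. EP400, the ATPase of the TIP60 complex, read 4.78, 11.0, 5.36 and 7.17 CPM with GapmeR and 3.44, 4.84, 17.3 and 13.8 CPM with scrambled oligonucleotide (difference -2.24, SE 0.58). Scrambled libraries 3 and 4 were the highest of the 8, and the gene overlaps an annotated transcript of the other strand by 495 bases. SRCAP, an ATPase that loads a histone variant, had a difference of -1.65 at levels of only 1.47 to 4.84 CPM over the 8 libraries. CHD3 (-1.04) and CHD4 (-1.26), the alternative ATPases of the NuRD repressor complex, were higher with GapmeR in replicates 1 and 2, by 0.81 and 0.91, and did not pass in replicates 3 and 4.

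The ISWI partners BAZ1B (-1.11), BAZ2A (-0.99), the TIP5 subunit that silences rRNA genes, and RSF1 (-0.56) had the same direction of difference, as did the BAF subunits SMARCD1 (-0.72), SMARCD3 (-0.46) and DPF3 (-1.03). BAZ2A read 72.5, 68.4, 54.4 and 48.2 CPM with GapmeR and 38.1, 39.9, 56.2 and 56.3 CPM with scrambled oligonucleotide, highest with GapmeR in replicates 1 and 2. SMARCD3 read 177, 203, 141 and 148 CPM with GapmeR and 178, 175, 186 and 183 CPM with scrambled oligonucleotide, and its GapmeR libraries 3 and 4 were the lowest of the 8.

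SMARCA1 and BRD7 differed in the other direction. SMARCA1 read 102, 91.6, 173 and 180.0 CPM with GapmeR and 167, 173, 157 and 155 CPM with scrambled oligonucleotide, so that GapmeR libraries 1 and 2 stood far below the other 6 (difference 0.99, SE 0.15, adjusted p = 0.0116 by edgeR). BRD7, a bromodomain subunit of PBAF, read 27.2, 34.0, 29.7 and 57.6 CPM with GapmeR and 55.6, 46.2, 26.9 and 29.7 CPM with scrambled oligonucleotide (difference 1.36), and GapmeR library 4 alone was high in its set. SMARCA2 fell in replicates 1 and 2 (-0.79) and read 0.0015 in replicates 3 and 4, but the difference of 0.79 did not pass (adjusted p = 0.274 in edgeR). The fall of SMARCA2 no longer passed without scrambled library 1 (-0.35), with length and GC offsets (-0.40) or span offsets (-0.23), in limma-voom or when the set was fitted alone. For SMARCA4 the effects of -0.52 and -0.31 differed by 0.20 (SE 0.21, adjusted p = 0.629 in edgeR), and only the first passed.

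**Figure D5:**
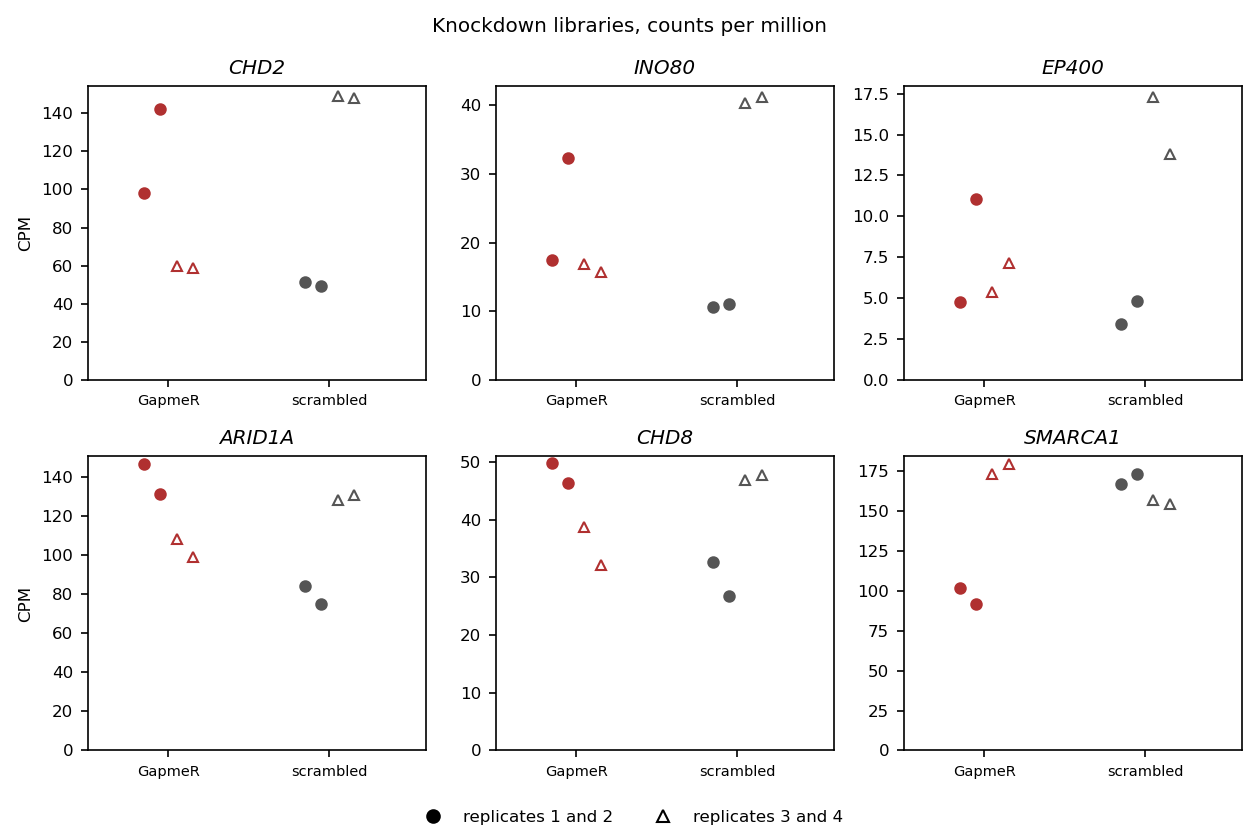
CPM of 6 genes in the 8 knockdown libraries, GapmeR left of scrambled oligonucleotide; filled circles are replicates 1 and 2 and open triangles replicates 3 and 4. CHD2 and INO80 are near 50 and 11 CPM in scrambled libraries 1 and 2 and near 148 and 41 CPM in scrambled libraries 3 and 4, while for SMARCA1 GapmeR libraries 1 and 2 stand lowest.

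Markers moved with the sets as well. The summed level of 12 proliferation genes was 551 and 685 CPM in GapmeR libraries 1 and 2 and 877 and 808 CPM in the scrambled ones, and 891 and 858 CPM in GapmeR libraries 3 and 4 and 397 and 388 CPM in the scrambled ones. In replicates 1 and 2, 0 of 12 were higher and 6 lower, and in replicates 3 and 4, 11 were higher and 1 lower. Cardiomyocyte markers were lower for 9 of 12 genes in replicates 1 and 2 and for 4 of 12 in replicates 3 and 4. Hepatic endoderm markers summed to 72.7 and 64.9 CPM in GapmeR libraries 1 and 2 and 149 and 133 CPM in the scrambled ones, with 0 of 9 genes higher and 7 lower, and to 189 and 201 CPM in GapmeR libraries 3 and 4 and 208 and 214 CPM in the scrambled ones, with 1 higher and 2 lower. Smooth muscle markers were lower for 3 of 7 genes in replicates 1 and 2 and higher for 2 of 7 in replicates 3 and 4. MALAT1, a nuclear RNA, read 872, 848, 1507 and 1965 CPM with GapmeR and 479.6, 475, 971 and 1029 CPM with scrambled oligonucleotide, higher with GapmeR within each set. Of all genes tested, 13.4% were higher and 13.7% lower in replicates 1 and 2, and 6.95% and 8.26% in replicates 3 and 4. The part of these marker shifts in the remodelers' differences was not tested. Within the sets, calls depended on single libraries, among the remodelers and over all genes. The count in replicates 1 and 2 was 11 without scrambled library 1, 27 without GapmeR library 1 and 26 without GapmeR library 2. Over all genes these fits called 1685 higher and 1875 lower, 2659 and 3581, and 3219 and 3647, in the same order. The count in replicates 3 and 4 was 4 without scrambled library 3, 19 without GapmeR library 1 and 20 without GapmeR library 2. Over all genes these fits called 754 higher and 909 lower, 2150 and 2404, and 2167 and 2381. The count of differences was 28 without GapmeR library 1, with 3426 higher and 2611 lower over all genes.

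BAF, ISWI and NuRD complexes take alternative paralogs, and 10 such shares were followed on the length-scaled levels. The share of ARID1A in ARID1A and ARID1B was 86.0%, 85.7%, 85.8% and 86.3% with LINC00881 plasmid, against 87.1%, 86.5%, 86.6% and 86.9% with control plasmid. The groups did not overlap, and their means differed by -0.854 percentage points (exact permutation test, 2-sided, p = 0.0286, the smallest possible, and 0.229 adjusted over 20 tests). It was the only share of the 10 to pass with overexpression, and none passed with knockdown. With GapmeR the ARID1A share was 95.1%, 93.4%, 89.6% and 87.1%, against 87.0%, 83.6%, 86.4% and 87.5% with scrambled oligonucleotide. These means differed by 5.19 percentage points (exact permutation test, 2-sided, p = 0.0571, 0.229 adjusted). The largest knockdown difference was 18.5 points, for BICRA in BICRA and BICRAL, which rest on few reads (the same exact p). Both pairs of groups overlapped. The share of SMARCA4 in SMARCA4 and SMARCA2 was 61.1% ± 0.946 with LINC00881 plasmid and 59.3% ± 2.94 with control plasmid, and 77.5% ± 5.56 with GapmeR and 78.2% ± 3.96 with scrambled oligonucleotide (SD, n = 4 libraries each). SMARCA1 made up 48.4%, 50.2%, 67.5% and 68.6% of SMARCA1 and SMARCA5 with GapmeR and 64.6%, 64.9%, 65.0% and 66.2% with scrambled oligonucleotide, the first pair of GapmeR libraries lying below all others. DPF3 made up 16.5%, 25.9%, 31.96% and 31.4% of DPF2 and DPF3 with GapmeR and 27.5%, 25.7%, 48.6% and 52.4% with scrambled oligonucleotide, where scrambled libraries 3 and 4 stood apart.

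Genes of the same complexes outside the 49 were counted as lists at the same unadjusted threshold. Of all genes tested, 12.1% passed it with LINC00881 plasmid and 8.35% with GapmeR. Of 12 other subunits of NuRD, 1 was higher and none lower with LINC00881 plasmid, and none passed with GapmeR. The gene was HDAC1, the histone deacetylase of NuRD, with a log2 fold change of 0.18. Of 27 further subunits of INO80, SRCAP and TIP60 complexes, 3 were higher and 2 lower with LINC00881 plasmid, among them DMAP1 (0.33) and MCRS1 (0.21), and 3 were higher and 1 lower with GapmeR, namely MRGBP (0.58), EPC1 (0.51), MEAF6 (0.36) and the AAA ATPase RUVBL1 (-0.36). Of 4 other BAF and ISWI subunits tested, POLE3, a histone-fold partner in CHRAC, and DPF1, the neuronal counterpart of DPF3, were higher with GapmeR (0.58 and 0.75). Of the other SNF2-type ATPases, 1 of 12 passed with LINC00881 plasmid (TTF2, 0.30) and 0 of 14 with GapmeR.

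The 49 genes are long, with a median of 9758 exonic bases and 81881 bases of span, which lie at the 88.4th and 77.0th percentile of the genes tested with knockdown. Across the 49 genes the overexpression effect followed GC content (Spearman 0.57, and 0.49 over all 13589 genes with a value), and the knockdown effect ran against span (Spearman -0.54, and -0.32 over 16148 genes). Genes are not independent replicates and these coefficients describe the libraries only.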

How the data were processed

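The series held 16 RNA-Seq libraries from cardiomyocytes of 1 iPSC line, in 4 groups of 4 that the submitters call biological replicates, so p-values measure the spread between these libraries. Libraries were made from total RNA with a stranded kit (1000 ng, 11 PCR cycles). The authors' processing notes name STAR 2.7.3a for alignment, and the deposited values are raw counts per gene symbol. Their table is named as unstranded, so reads of overlapping genes cannot be told apart. Total counts per library were 9833533 to 16415025 with plasmids and 26979162 to 37332620 with oligonucleotides.

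Counts were tested per experiment in edgeR 4.0.16 (R 4.3.3; filterByExpr, TMM scaling, quasi-likelihood test) over all genes past the filter, with Benjamini-Hochberg adjustment. A gene is called at an unadjusted p under 0.05. Knockdown libraries were also fitted with a mean for each group and set, and all 16 libraries with a mean for each group. CPM are TMM-scaled, and RPKM divide them by exonic length in GENCODE 29 (GRCh38). The common biological coefficient of variation, 1 value per fit, was 0.0792 with overexpression, 0.445 with knockdown and 0.275 with sets. Paralog shares and marker sums were compared by exact permutation tests. DESeq2 1.42.0, limma 3.58.1 (voom with sample weights), other filters and scalings, offsets on gene length and GC content or span, a replicate block and leaving out each library were the alternatives. The test was also run on simulated counts with 1 baseline mean per gene, so without the shifts between knockdown sets. That run cannot show how the test behaves on such shifts.

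The 49 genes and the other lists were chosen with earlier results of these data known. Named in full were SMARCA4, 7 other remodelers that the study considered as partners, genes called in either experiment, in both sets with the same sign or in a difference test, and up to 4 of each other list. Genes called within 1 set, genes without overlap and the extremes of level were named after their values were seen.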

Additional observations from a re-analysis of the deposited data

Results flagged for a closer look

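In 112 groups of 4 libraries, 1 for each of 28 named genes and each group, 4 had a library whose gap to the nearest other was above Dixon's critical value, where chance gives about 1 in 20. With LINC00881 plasmid, DPF3 read 167 CPM in library 2 and 157 to 158 CPM in the other 3. BAZ1B read 86.9 CPM in GapmeR library 1 and 52.4 to 57.2 CPM in the other 3. INO80 read 32.3 CPM in GapmeR library 2 and 15.7 to 17.5 CPM in the other 3. ERCC6 read 39.3 CPM in control plasmid library 2 and 49.2 to 49.7 CPM in the other 3.

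The knockdown effects of 8 genes differed between the 2 sets after adjustment over all 18127 genes in edgeR, given here as replicates 3 and 4 minus replicates 1 and 2 on the log2 scale. The differences were -2.58 for CHD2 (adjusted p = 0.00319), -2.53 for INO80 (adjusted p = 0.0116), -1.26 for CHD4 (adjusted p = 0.0278) and -1.13 for ARID1A (adjusted p = 0.0121). They were -1.11 for CHD8 (adjusted p = 0.0355), -1.03 for DPF3 (adjusted p = 0.0305), -0.99 for BAZ2A (adjusted p = 0.0259) and 0.99 for SMARCA1 (adjusted p = 0.0116). The number of such genes was 1 without any 1 of the 4 scrambled libraries or GapmeR library 4, 4 without GapmeR library 3, and 16 without GapmeR library 1 or 2. Over all genes, 1027 differences became 70 to 204 without 1 scrambled library, 104 without GapmeR library 4 and 308 without GapmeR library 3. They became 3252 and 3764 without GapmeR libraries 1 and 2. The sets cannot be told apart from whatever else separated replicates 1 and 2 from replicates 3 and 4. CHD4 overlaps another gene of the same strand by 5964 bases, and CHD2 by 1730 bases.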

How the results depend on the processing

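Of 961 values of 57 results on named genes under the alternatives, 817 kept their direction and side of the threshold, 138 kept the direction only and 6 reversed, apart from the SMARCA4 results of each experiment, given below; the causes were not tested. With overexpression, the 5 calls became 10 in limma-voom, 8 with no filter, 10 with length and GC offsets and 0 with all 16 libraries in 1 fit. Without 1 library they ranged from 2 to 11. Over all genes, limma-voom gave 1353 higher and 1252 lower of 14355, and no filter 1314 and 1071 of 32465. Without 1 library, 471 to 1279 were higher and 524 to 1401 lower. With knockdown, the 5 calls became 3 with span offsets and 8 with all 16 libraries, and 0 to 6 without 1 library. Over all genes, 851 were higher and 340 lower with span offsets, and 1709 and 1633 with all 16 libraries. Without 1 library, 546 to 839 were higher and 602 to 851 lower. Within replicates 1 and 2 the 17 calls ranged from 11 to 27 without 1 library. Within replicates 3 and 4 the 9 calls became 18 in limma-voom and 19 when that set was fitted alone, and 4 to 20 without 1 library. The 16 differences between sets ranged from 13 to 28 without 1 library. Over all genes, leaving out 1 library gave 1615 to 3219 higher and 1851 to 3647 lower in replicates 1 and 2. It gave 629 to 2167 higher and 849 to 2404 lower in replicates 3 and 4, where limma-voom gave 2163 and 2557 and the set alone 2424 and 2610. For the differences it gave 1435 to 3426 higher and 1496 to 2986 lower. The 6 differences between treatments became 13 with length and GC offsets and 15 with means for the sets.

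SMARCA4 with overexpression (0.14) passed at 0.15 with no filter, reversed to -0.022 with length and GC offsets and ranged from 0.074 to 0.18 without 1 library. With knockdown (-0.40) it no longer passed with DESeq2 size factors (-0.40), in DESeq2 (-0.40) or limma-voom (-0.25), or with length and GC offsets (-0.22) or on gene span (-0.18), and ranged from -0.53 to -0.28 without 1 library. ARID1B reversed with span offsets in replicates 1 and 2 (0.22) and in the difference between treatments (-0.00078), and with length and GC offsets in replicates 3 and 4 (0.086). ARID2 in replicates 1 and 2 reversed to 0.048 and 0.18 under length and GC offsets and under span offsets, and ARID1A in replicates 3 and 4 to 0.14 under the first. Paralog shares past the exact test numbered 1 to 2 with overexpression and 0 to 1 with knockdown without 1 library.

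Replicate numbers did not pair the libraries. Deviations of same-numbered libraries correlated at 0.05, 0.13, -0.09 and 0.03 with overexpression and at 0.11, 0.08, 0.17 and 0.09 with knockdown, and not every library correlated best with its own number. With the replicate block there were 7 calls with overexpression and 5 with knockdown, and SMARCA4 stood at 0.14 and -0.42, the second still called. Over all genes the block gave 976 higher and 944 lower with overexpression, and 871 and 1019 with knockdown. The block with length and GC offsets, fitted to knockdown only, gave 3 calls and -0.21 for SMARCA4. Over all genes it gave 1261 higher and 596 lower.

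All 49 genes passed the filter on low counts. BICRA, BICRAL, CECR2 and SRCAP had few reads in the knockdown libraries.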

Other observations

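Genes that BRG1 is known to work with or act on in the heart were followed beside the remodelers. Of 10 such genes, 1 rose with LINC00881 plasmid, and with GapmeR 1 rose and 3 fell in edgeR's quasi-likelihood test, none past adjustment. Of all genes tested, 12.1% passed unadjusted with LINC00881 plasmid and 8.35% with GapmeR. MYH6, the alpha myosin heavy chain gene that BRG1 represses in the fetal mouse heart, read 5516, 5455, 5722 and 5182 CPM with LINC00881 plasmid and 4056, 4483, 3852 and 4695 CPM with control plasmid (log2 fold change 0.36, SE 0.07), and the groups did not overlap. With GapmeR it read 2064, 1278, 1142 and 1046 CPM, against 2608, 2359.8, 1736 and 1629 CPM with scrambled oligonucleotide (log2 fold change -0.59, SE 0.24), and GapmeR library 1 lay inside the scrambled range.

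The cardiac transcription factor gene NKX2-5 read 98.7, 91.3, 105 and 105 CPM with GapmeR and 169, 142, 120.0 and 125 CPM with scrambled oligonucleotide (log2 fold change -0.48, SE 0.14), again without overlap. ADAMTS1, a secreted protease gene that BRG1 represses in mouse endocardium, changed by -0.47 with GapmeR, and NPPB, the brain natriuretic peptide gene, by 1.25. MYH6, MYH7 and NKX2-5 stand both among these genes and among the cardiomyocyte markers, so the lists are not separate observations. Cardiomyocyte markers moved in the same libraries, and their part in these values was not tested.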
